A study of Mus musculus with 6 samples.

Results

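The genes described here are 10 immunoglobulin Fc receptor and Fc receptor-like genes, measured on 6 arrays of mouse B lymphoma cells. They were chosen by name: a probe set was taken where its gene symbol, current or former, was Fcmr, Fcamr, Fcer2a, Fcgr1, Fcgr3, Fcgr4, Fcgr2b, Fcer1g, Fcrl1 or Fcrla. All 10 were found, each with 1 probe set, among 21212 probe sets and 18784 named genes. The family was singled out after the fall of Fcmr between these same arrays was known, so the differences of its members are given as a description, with intervals but without p-values.

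The cells were cultured mouse lymphomas of the genotype Arf-/-Eu-myc/Bcl-2: they have no Arf tumour suppressor, and Eu-myc places the Myc oncogene under an immunoglobulin heavy chain enhancer that is active in B cells. Both groups share this genotype and were grown on irradiated mouse embryonic fibroblasts that also lack Arf. The 2 groups, with 3 arrays each, differ in the short hairpin RNA they were transduced with: Rluc.713, a control named for Renilla luciferase, or Dhx9.1241, named for the RNA and DNA helicase gene Dhx9. The labels name no drug treatment of these cultures, only 1 hairpin was used for Dhx9, and nothing in them says whether the 3 arrays of a group came from separate cultures or tumours. Every p-value is thus set against array-to-array spread that may be technical only, and the number of arrays limits the precision.

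Fc receptors bind the constant part of antibodies and so couple antibody to the cells that carry it. In the mouse, the activating IgG receptors encoded by Fcgr1, Fcgr3 and Fcgr4 signal through the shared gamma chain encoded by Fcer1g, whose tyrosine motif recruits the kinase SYK. The inhibitory IgG receptor encoded by Fcgr2b, the main IgG receptor of B cells, carries its own inhibitory motif and recruits the phosphatase SHIP1. B cells further carry an IgM receptor (Fcmr, formerly Faim3 or Toso) and, when mature, the low-affinity IgE receptor CD23 (Fcer2a).

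The upstream sequences of Fcmr and Fcer1g, the 2 members that passed the threshold of the comparison, and of 4 other members are shown. B cell and myeloid Fc receptor genes include known targets of the ETS factors PU.1 (Spi1) and SPI-B (Spib). The motif searched for was chosen with the fall of Spib in the Dhx9.1241 cells known. Whether either factor acts on a member in these cells was not tested. The sequences are from RefSeq, GRCm38.p6, end at the base before the annotated start, and read 5′ to 3′ on the gene's strand. Capitals mark GAGGAA, a longer string that contains the ETS core GGAA, or TTCCTC where it lies on the opposite strand. GGAA alone was not counted, and it also occurs outside the capitals, including upstream of Fcer1g. All 10 members had a promoter in this table. The 250 bases upstream of Fcmr (chr1:130865527-130865776, plus strand) hold 1 match, which begins 36 bases before the start, and those upstream of Fcer1g (chr1:171234350-171234599, minus strand) hold none.
Fcmr: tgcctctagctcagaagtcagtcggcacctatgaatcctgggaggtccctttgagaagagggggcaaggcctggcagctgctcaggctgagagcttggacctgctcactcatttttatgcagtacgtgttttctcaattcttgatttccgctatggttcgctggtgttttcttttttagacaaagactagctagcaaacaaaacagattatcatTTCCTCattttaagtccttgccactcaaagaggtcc
Fcer1g: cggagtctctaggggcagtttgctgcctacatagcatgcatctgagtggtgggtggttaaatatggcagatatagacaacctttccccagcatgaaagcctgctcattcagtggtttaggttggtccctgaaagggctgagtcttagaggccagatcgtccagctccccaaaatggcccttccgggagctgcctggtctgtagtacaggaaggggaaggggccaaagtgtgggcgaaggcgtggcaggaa

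Shorter windows around the same string follow for Fcrla (chr1:170927590-170927645, minus strand), Fcgr1 (chr3:96293994-96294049, minus strand), Fcgr4 (chr1:171018879-171018925, plus strand) and Fcgr3 (chr1:171059404-171059434, minus strand).
Fcrla: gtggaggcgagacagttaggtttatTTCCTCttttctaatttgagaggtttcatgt
Fcgr1: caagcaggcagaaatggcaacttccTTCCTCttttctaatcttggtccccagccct
Fcgr4: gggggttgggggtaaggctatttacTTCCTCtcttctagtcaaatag
Fcgr3: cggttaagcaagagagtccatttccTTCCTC
In all, 7 of the 10 members hold GAGGAA on either strand within 250 bases upstream of a start; Fcrl1 and Fcamr are the others, and Fcgr2b, Fcer1g and Fcer2a have no match. The share over 32841 promoters of the same length is 23.3%, counted per promoter, whereas a member was counted when any of its starts had a match. Because the motif was picked with results of these arrays known, both shares are a description only. Fcgr1, whose induction by interferon gamma is well known, also holds the only match among the members to the STAT-binding GAS element TTCNNNGAA. This element reads the same on both strands and does not overlap the GAGGAA match there, and 7.02% of all promoters hold it. Its window is chr3:96294045-96294103 on the minus strand, with the element in capitals.
Fcgr1 GAS: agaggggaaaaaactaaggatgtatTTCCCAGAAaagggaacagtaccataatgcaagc
A match is a description of the letters, not a site of binding. Members with and without GAGGAA are found both among those that passed the threshold and among those that did not.

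Levels are log2 values made by robust multi-array average (RMA), and levels of different probe sets cannot be set against each other. A gene's rank by level over all genes is given only to mark probe sets with a low value; no measure of detection was used. Array medians lay between 8.43 and 8.51. On principal component 2 of all genes, Rluc.713 replicate 1 scored 16.7, while the remaining Rluc.713 arrays scored -4.81 and -5.29. This component carried 34.4% of the variance, against 39.1% for component 1. In the alternative fit that weights arrays, Rluc.713 replicate 1 had a weight of 0.268, and the other arrays had 1.08 to 2.01. As a check of the labels, Dhx9 itself was lower on each Dhx9.1241 array: it was at 12.42 ± 0.063 in Rluc.713 and 11.42 ± 0.041 in Dhx9.1241 (SD, n = 3 each), although the sample titles of the same arrays name Dhx29. Of 19 measured B cell markers, 1 (Dntt) was among the lowest 25% of genes by level; the antigen receptor genes Cd79a and Cd79b were at 13.80 and 13.88 in Rluc.713, and Pax5, a B lineage factor gene, at 12.39. These ranks and levels are a description and do not by themselves establish the cell type.

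Of the 10 members, 2 were lower in Dhx9.1241 and none was higher at an adjusted p under 0.05 (limma, two-sided, Benjamini-Hochberg over all 18784 genes), a rule that called 3.14% of all genes, 2.07% as higher and 1.07% as lower. Those that passed were Fcmr and Fcer1g. At an unadjusted p under 0.05, which 8.50% of all genes met as higher and 5.63% as lower, 2 members were higher (Fcgr3 and Fcrl1) and 2 lower (Fcmr and Fcer1g). The median difference of the members was -0.06 on the log2 scale, against 0.00 over all genes, with 6 differences below 0 and 4 above; 52.5% of all genes had a difference above 0. The Dhx9.1241 and Rluc.713 arrays did not overlap for 4 members, against 20.1% of all genes.

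Fcmr, the IgM receptor gene, had the largest difference in the family. Its log2 level was 11.27, 11.38 and 11.28 on the Rluc.713 arrays and 10.47, 10.44 and 10.32 on the Dhx9.1241 arrays. All Dhx9.1241 arrays lay well below all controls, and within each group the arrays stayed close together. The mean fell from 11.31 ± 0.062 to 10.41 ± 0.079 (SD, n = 3), a log2 difference of -0.90 (SE 0.059, 95% interval -1.03 to -0.76), which is a level 1.86-fold lower. Leaving out any 1 array moved this difference only between -0.93 and -0.85, and Fcmr passed the threshold in each of those fits. In RNA from whole cultures, fewer cells with the transcript and less of it per cell cannot be told apart.

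**Figure D1:**
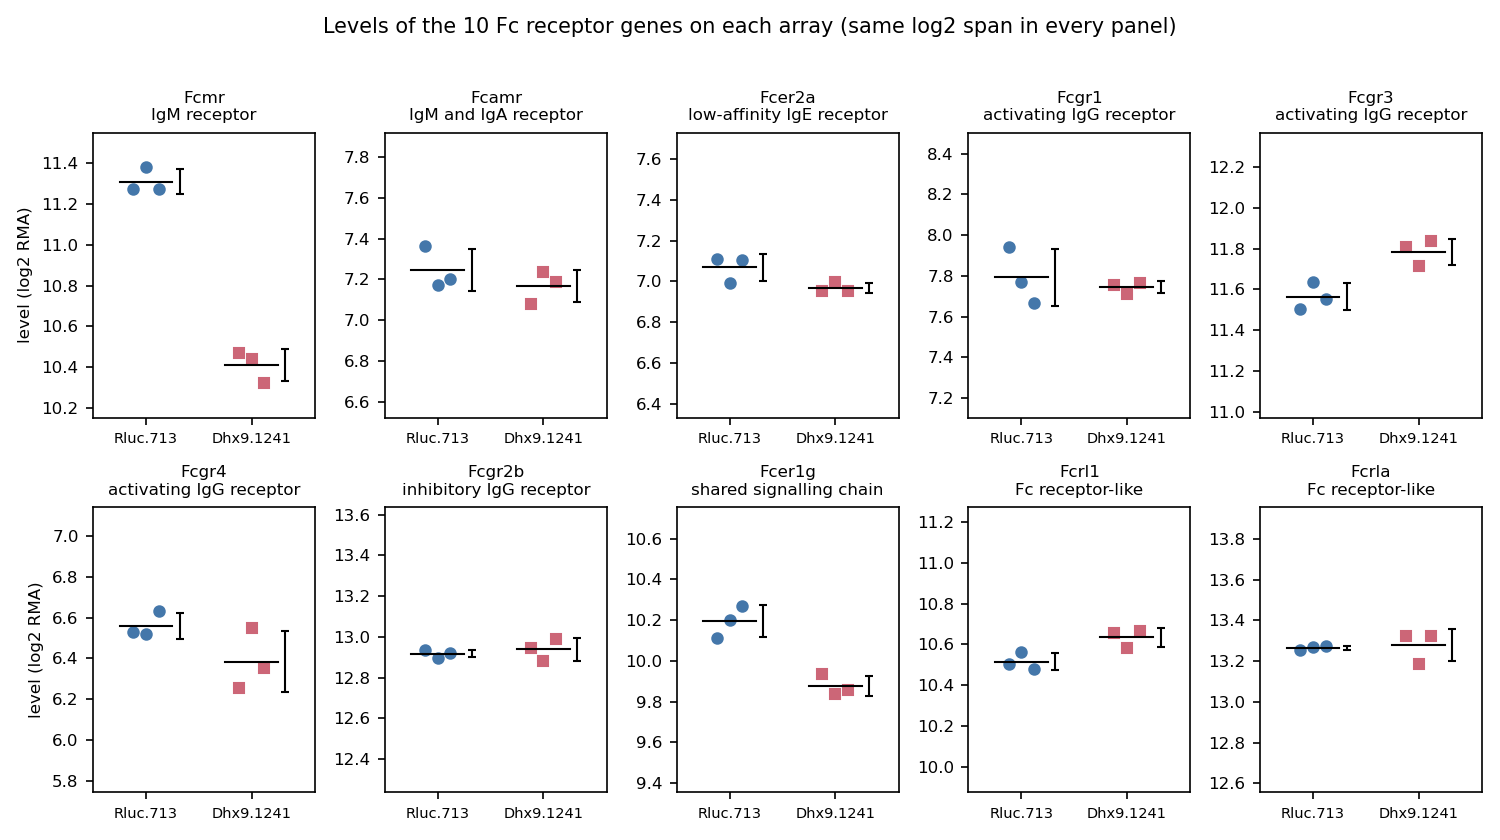
Log2 RMA levels of the 10 genes, 1 panel per gene, with every panel spanning the same log2 range; circles are the 3 Rluc.713 arrays, squares the 3 Dhx9.1241 arrays, horizontal lines the group means and bars the SD. Fcmr drops from about 11.3 to 10.4, Fcer1g from 10.2 to 9.88, and the points of Fcgr2b and Fcrla lie at nearly the same height in both groups.

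The other receptor for IgM in the family, Fcamr, which also binds IgA, was among the lowest 25% of genes by level. Its log2 level was 7.36, 7.17 and 7.20 in Rluc.713 and 7.08, 7.24 and 7.19 in Dhx9.1241. The groups overlapped, and the difference was -0.08 (SE 0.068, interval -0.23 to 0.08). The IgE receptor gene Fcer2a was likewise among them, at 7.11, 6.99 and 7.11 in Rluc.713 and 6.95, 6.99 and 6.95 in Dhx9.1241. Its groups overlapped by a narrow margin, with a difference of -0.10 (SE 0.052, interval -0.22 to 0.02).

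Fcer1g, the signalling chain shared by the activating IgG receptors and the high-affinity IgE receptor, was the second member to pass. Its log2 level was 10.11, 10.20 and 10.27 in Rluc.713 and 9.93, 9.84 and 9.86 in Dhx9.1241. The groups did not overlap, and the arrays nearest each other were replicate 1 of both groups. The mean fell from 10.19 ± 0.079 to 9.88 ± 0.05 (SD, n = 3), a difference of -0.32 (SE 0.058, interval -0.45 to -0.19), or 1.25-fold lower. The call is less firm than that of Fcmr: without Rluc.713 replicate 1 the difference was -0.36 and the call held, but it was lost without Rluc.713 replicate 2 (-0.32) or replicate 3 (-0.28) and without Dhx9.1241 replicate 1 (-0.35), replicate 2 (-0.30) or replicate 3 (-0.31).

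None of the activating IgG receptor genes whose products depend on this chain passed the threshold. Fcgr3, the gene of the low-affinity receptor CD16, stood at 11.50, 11.64 and 11.55 in Rluc.713 and at 11.81, 11.71 and 11.84 in Dhx9.1241. All Dhx9.1241 arrays were above all controls, as for 11.6% of all genes, and the difference of 0.22 (SE 0.058, interval 0.09 to 0.35) did not pass the threshold. It did pass under 4 alternatives: a second quantile normalization (0.21), cyclic loess (0.22), robust estimation with a trended variance, and a filter that kept genes from the median level upward.

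Fcgr1, the high-affinity IgG receptor gene, was at 7.94, 7.77 and 7.67 in Rluc.713 and at 7.75, 7.71 and 7.77 in Dhx9.1241. The Dhx9.1241 arrays fell inside the spread of the controls, and the difference was -0.05 (SE 0.072, interval -0.21 to 0.12). Fcgr4, which encodes a receptor of intermediate affinity found on myeloid cells, had a low value, with a mean above that of 14.0% of genes. It was at 6.53, 6.52 and 6.63 in Rluc.713 and at 6.25, 6.55 and 6.35 in Dhx9.1241. Dhx9.1241 replicate 2 lay among the controls and the other Dhx9.1241 arrays below them, with a difference of -0.18 (SE 0.079, interval -0.36 to 0.01).

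The inhibitory receptor gene Fcgr2b did not pass. It was at 12.93, 12.90 and 12.92 in Rluc.713 and at 12.95, 12.88 and 12.99 in Dhx9.1241. The groups overlapped, and the difference of 0.02 (SE 0.05) had an interval of -0.09 to 0.14. Fcgr2b and Fcgr3 encode near-identical extracellular parts, and no source used here gives the probe positions, so how far each probe set reads the other transcript was not tested.

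The Fc receptor-like genes encode relatives of these receptors in B cells. Fcrla, whose product stays inside the cell, was at 13.26, 13.27 and 13.27 in Rluc.713 and at 13.32, 13.19 and 13.32 in Dhx9.1241. Its difference was 0.01 (SE 0.054, interval -0.11 to 0.14), and Dhx9.1241 replicate 2 alone lay below the controls. Fcrl1, a surface co-receptor that augments B cell receptor signalling, was at 10.50, 10.56 and 10.48 in Rluc.713 and at 10.66, 10.58 and 10.67 in Dhx9.1241. All Dhx9.1241 arrays were above the controls by a small margin, with a difference of 0.12 (SE 0.05, interval 0.01 to 0.24) that did not pass the threshold.

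**Figure D2:**
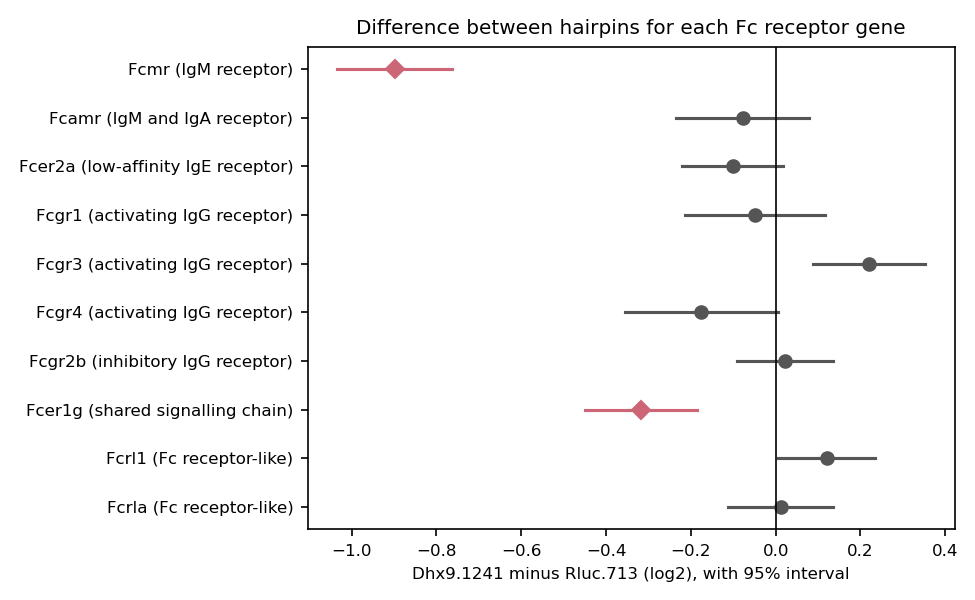
Log2 difference, Dhx9.1241 minus Rluc.713, for each member with its 95% interval from the limma fit to 3 arrays per group; diamonds are members past the threshold over all genes, circles the rest. Fcmr at -0.90 lies far from the other members, whose differences run from -0.32 (Fcer1g) to 0.22 (Fcgr3).

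The members' neighbours were compared because 7 of the 10 lie on mouse chromosome 1, in 3 places: Fcamr and Fcmr with Pigr between them, Fcrla, Fcgr2b, Fcgr4 and Fcgr3 in a row, and Fcer1g apart from these. Of 37 measured genes that are among the 3 nearest on either side of a member and are not members, none was higher and 1 was lower in limma, the unadjusted p was under 0.05 for 2 higher and 1 lower gene, and the median difference was 0.02. Pigr, which encodes the transporter of polymeric IgA and IgM across epithelia and is the measured gene next to Fcmr, differed by -0.00 (interval -0.23 to 0.23), and Il24 on the other side by 0.16 (interval -0.12 to 0.44). Beside Fcer1g, Apoa2 differed by 0.27 (SE 0.065, limma adjusted p = 0.0735) and Adamts4 by 0.02; neither passed. The neighbour that passed was the histone gene H3c14 near Fcgr1, at -0.73 (limma adjusted p = 0.0111); it has near-identical paralogs, so its value is uncertain, and it no longer passed once Dhx9.1241 replicate 1 was left out.

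**Figure D3:**
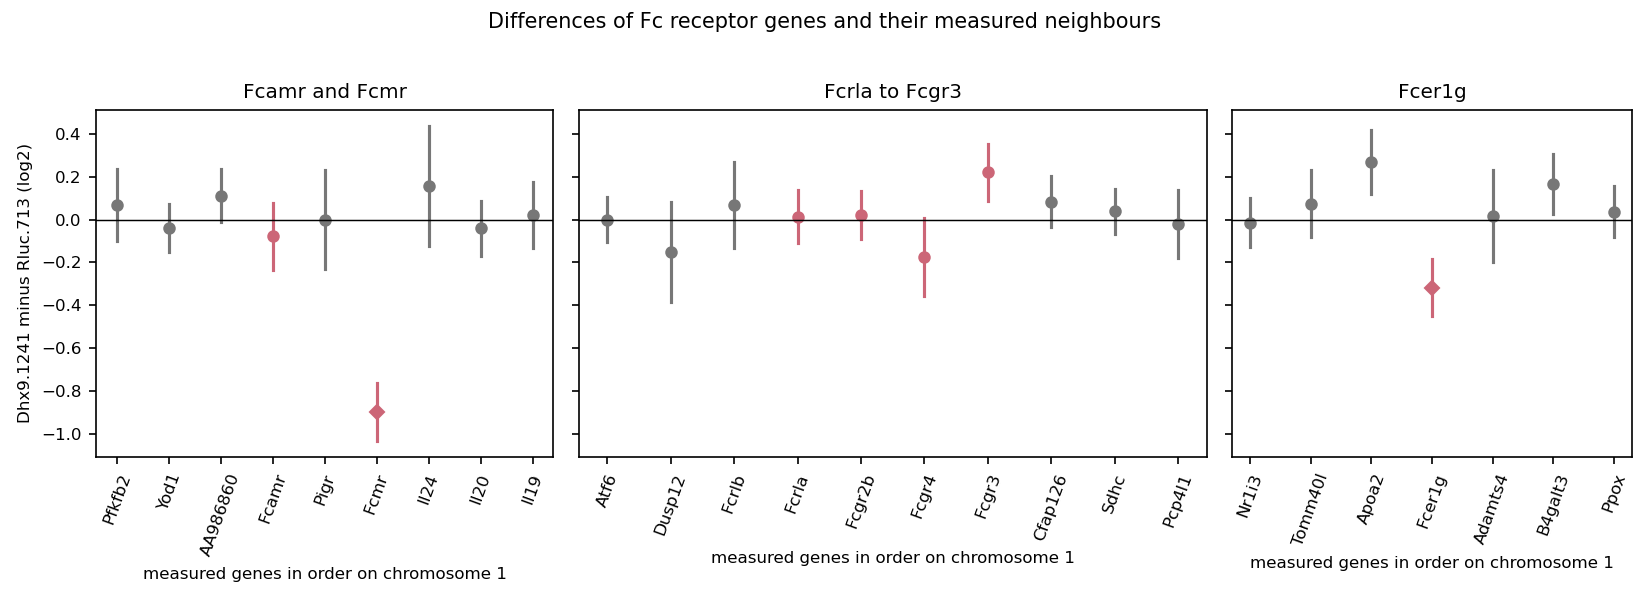
Log2 differences, Dhx9.1241 minus Rluc.713, with 95% intervals for the members on chromosome 1 (coloured) and their measured neighbours (grey), in chromosomal order but not to distance; diamonds passed the threshold. Fcmr at -0.90 stands beside Pigr at -0.00 and Il24 at 0.16, and Fcer1g at -0.32 beside Apoa2 at 0.27 and Adamts4 at 0.02.

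Other receptors for immunoglobulin outside the family were measured as well: of 9 such genes, none passed in limma, and 2 were lower and none higher at an unadjusted p under 0.05. The largest differences were those of Fcgrt, which encodes the neonatal Fc receptor that recycles IgG (-0.13, limma adjusted p = 0.314), and of Trim21, which encodes a cytosolic IgG receptor (-0.13, limma adjusted p = 0.349). Fcer1a and Ms4a2, the other chains of the high-affinity IgE receptor that Fcer1g serves, had means above those of 5.13% and 4.37% of genes and differences of -0.04 and 0.07. Of the immunoglobulin ligands themselves, only the joining chain gene Jchain was measured among the genes tested here, at -0.06 (interval -0.18 to 0.06). The immunoglobulin heavy and light chain genes were not analysed here.

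Among 24 genes that act with or below activating Fc receptors, 1 rose and 2 fell, against 2.07% and 1.07% of all genes, with a list median of -0.03. Limma's unadjusted p was under 0.05 for 5 higher and 7 lower genes, against 8.50% and 5.63% of all genes. The groups did not overlap for 12, against 20.1% of all genes. Tyrobp, the adaptor DAP12 that resembles the Fcer1g chain in function, was at 11.01, 11.05 and 11.06 in Rluc.713 and at 10.70, 10.64 and 10.66 in Dhx9.1241. The groups were well apart, with a fall of 0.37 (SE 0.047, limma adjusted p = 0.00556), and Tyrobp passed without any 1 array. The membrane adaptor gene Lat2 fell by 0.29 (SE 0.054, limma adjusted p = 0.0308), while Hcst, which encodes the adaptor DAP10 and has a phosphoinositide 3-kinase binding motif in place of the tyrosine motif of Fcer1g, rose by 0.34 (SE 0.062, limma adjusted p = 0.0249). Without any array but Rluc.713 replicate 1, the calls of Lat2 (adjusted p = 0.0965 to 0.138) and Hcst (0.071 to 0.116) were lost. Syk, the kinase recruited by Fcer1g, differed by -0.10 (interval -0.22 to 0.03) and did not pass. Grb2 (-0.26, limma adjusted p = 0.0572) and Tec (0.21, 0.0583) did not pass either, but did so under 7 and 6 of 15 alternatives.

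Among 21 genes of inhibitory signalling and inhibitory receptors, 2 fell and none rose, against 1.07% and 2.07% of all genes. Limma's unadjusted p was under 0.05 for 1 higher and 4 lower genes, against 8.50% and 5.63% of all genes. The groups did not overlap for 10, against 20.1% of all genes, and the list median was -0.04. Lilrb4a, an inhibitory receptor gene of the leukocyte Ig-like family, fell by 0.36 (SE 0.07, limma adjusted p = 0.0336), and Pecam1, an adhesion receptor gene with inhibitory motifs, by 0.33 (SE 0.062, limma adjusted p = 0.0292). Both calls were lost without any array but Rluc.713 replicate 1, with adjusted p from 0.0887 to 0.15 for Lilrb4a and from 0.104 to 0.126 for Pecam1. Inpp5d, the gene of the phosphatase SHIP1 that Fcgr2b recruits, differed by -0.12 (limma adjusted p = 0.332), and Ptpn6, the gene of SHP-1, by -0.06 (0.704).

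Of 20 transcription factor genes linked to B cell and myeloid Fc receptor expression, 1 fell and none rose, against 1.07% and 2.07% of all genes. Limma's unadjusted p was under 0.05 for 3 higher and 4 lower genes, against 8.50% and 5.63% of all genes. The groups did not overlap for 11, against 20.1% of all genes, and the median was -0.04. Spib was at 12.11, 12.18 and 12.30 in Rluc.713 and at 11.66, 11.54 and 11.77 in Dhx9.1241. Its groups did not overlap, and it fell by 0.54 (SE 0.075, limma adjusted p = 0.00806), a call that held without any 1 array. Spi1, the gene of the related factor PU.1, differed by -0.24 (SE 0.054, limma adjusted p = 0.0572) and passed under 7 of 15 alternatives: both level filters, the second quantile normalization, cyclic loess, the robust trended variance, array weights and leaving out Rluc.713 replicate 1. Lists of related genes were written with earlier results of these arrays known, so their counts do not stand as independent evidence.

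**Figure D4:**
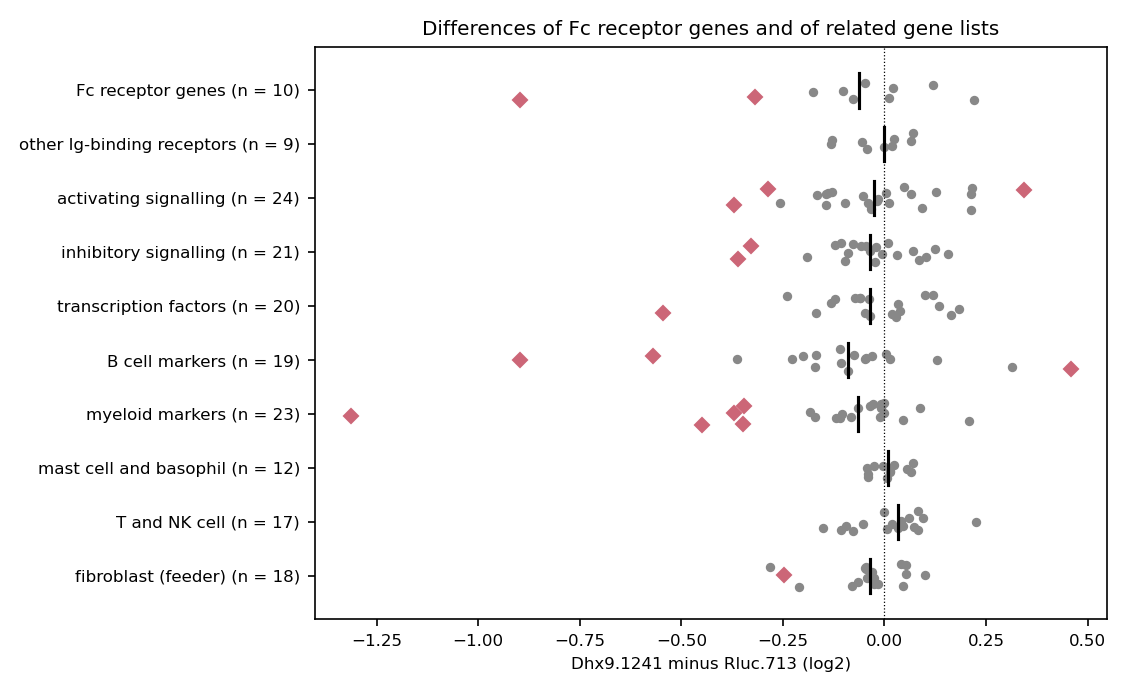
Log2 differences, Dhx9.1241 minus Rluc.713, of every measured gene of each list, with n genes per list, diamonds for genes past the threshold over all genes and a vertical bar at the list median; points are spread vertically only for legibility, and a gene can stand in 2 lists (Fcmr, Tyrobp, Fcer1a, Ms4a2, Cd22, Pax5 and Ebf1 do). The Fc receptor genes spread from -0.90 to 0.22 around a median of -0.06, and the myeloid markers extend to -1.31 at Lyz2.

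Since Fcmr marks B cells and Fcer1g and the activating receptors are common in myeloid cells, markers of the cell types that cultures could hold are given beside them. Of 19 B cell markers, 2 fell (Fcmr itself and Vpreb3, by 0.57) and Rag1, the recombinase gene, rose by 0.46 (SE 0.075, limma adjusted p = 0.0163). The median was -0.09, with 14 differences below 0 and 5 above. Of all genes, 2.07% were called higher and 1.07% lower. Limma's unadjusted p was under 0.05 for 2 higher and 7 lower markers, against 8.50% and 5.63% of all genes. The groups did not overlap for 11, against 20.1% of all genes. The Rag1 call was lost without Rluc.713 replicate 2 (0.0615), Dhx9.1241 replicate 1 (0.0687) or Dhx9.1241 replicate 3 (0.0871). Cd79b, at -0.07 (interval -0.18 to 0.03), and Pax5, at -0.05 (interval -0.16 to 0.06), did not pass. Nearer the threshold, but not past it, were Cr2 (-0.36, limma adjusted p = 0.0687), Cd37 (-0.20, 0.0595) and Ms4a1 (0.31, 0.0717).

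Of 23 myeloid markers, 5 fell and none rose, against 1.07% and 2.07% of all genes. Limma's unadjusted p was under 0.05 for 1 higher and 7 lower genes, against 8.50% and 5.63% of all genes. The groups did not overlap for 7, against 20.1% of all genes, and the median was -0.06. The macrophage and neutrophil lysozyme gene Lyz2 fell by 1.31 (SE 0.067, limma adjusted p = 0.000129). It was followed by the growth factor receptor gene Csf1r (-0.45, limma adjusted p = 0.016), Tyrobp, the oxidase gene Cybb (-0.35, 0.0177) and the lectin gene Cd33 (-0.34, 0.00882). B cells also express Cybb. Its call was lost without any array but Rluc.713 replicate 1 (adjusted p = 0.0634 to 0.0828) and with the replicate block. The call of Csf1r was lost without Rluc.713 replicate 2 or any 1 Dhx9.1241 array (0.06 to 0.0863), and that of Cd33 without Dhx9.1241 replicate 3 (0.0551). The mean level over the list ran from 8.01 to 8.07 on the Rluc.713 arrays and from 7.89 to 7.90 on the Dhx9.1241 arrays. Adgre1, Ly6g, S100a8, S100a9 and Cd163 were among 9 markers in the lowest 25% of genes by level, and Adgre1 differed by -0.01. The remaining markers were not, among them Lyz2, Itgam and Csf1r, with means above those of 68.8%, 58.5% and 48.3% of genes. Itgam was higher by 0.21 (limma adjusted p = 0.152) and did not pass. Array values have no true 0. Fewer markers fell when Dhx9.1241 replicate 1 (3), replicate 2 (3) or replicate 3 (2) or Rluc.713 replicate 2 (3) or replicate 3 (4) was left out, with the replicate block (4) and under the filter from the median level (4), which leaves out Csf1r. The part of such cells in the fall of Fcer1g was not tested.

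None of 12 mast cell and basophil markers passed in limma, and none did so at an unadjusted p under 0.05; Hdc (0.07) and Ms4a2 (0.07) differed most, and 7 of the 12 were in the lowest 25% by level. Of 17 markers of T and NK cells none passed in limma, with 1 higher and none lower unadjusted, and 9 of them were in the lowest 25% by level. Klrb1c (0.22, limma adjusted p = 0.253) and Zap70 (-0.15, 0.403) differed most. Among 18 markers of fibroblasts, which form the feeder layer, the caveolin gene Cav1 fell by 0.25 (limma adjusted p = 0.0485) and none rose. Unadjusted, none of these was higher and 3 were lower, against 8.50% and 5.63% of all genes. The Cav1 call, of a kind made for 1.07% of all genes, was lost without any 1 array (adjusted p = 0.0543 to 0.19).

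Genes with clone, predicted or expressed-sequence names were left out of the rankings that follow. Among the rest, the pattern of Fcmr over the 6 arrays was most like that of Dhx9 (Pearson r = 0.998). Next were the cysteine synthesis gene Cth (0.997), the cytokine gene Tnf (0.996), Cd33 (0.996) and the chemokine receptor gene Ccr6 (0.996). Over all genes, 66 had r of at least 0.98 with Fcmr. These correlations are a description over 6 arrays in 2 groups and carry mainly the difference between the groups. Once the group means were taken out, the most alike genes were Naa40, Rab3b, Bhlhe40, Prkcsh and Trpv2, with r from 0.992 to 0.998, and none of the first 5 was among them.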

How the data were processed

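RNA from 6 samples was labelled with a 3′ in vitro transcription kit and hybridised to Affymetrix arrays, per the labels' protocols. The authors deposited 1 log2 value for each probe set on each array, made with RMA, per the submitters' processing notes. That the scale is log2 rests on the method and on the spread of the numbers. The RMA version, the name and version of the probe set definition and the genome build are not given in the sources used. Each member's probe set is named by its Entrez gene number, so finding 1 probe set per member follows from that naming.

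Probe sets were named through the platform annotation, with symbols updated by Entrez number (GRCm38.p6 gene table, used for names and neighbours): 18786 had 1 symbol, 6 several and 2420 none. For 2 genes with several probe sets, the one with the highest mean was kept, and genes with low values were not filtered. All 18784 genes were fitted for Dhx9.1241 against Rluc.713 with limma 3.58.1 (lmFit, eBayes) in R 4.3.3, without covariates, with Benjamini-Hochberg adjustment and a threshold of 0.05. Folds are differences taken out of the log2 scale. The fit was tested on simulated data.

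The members, lists and tests were chosen with earlier results of these data known. Named genes were all members; up to 4 called genes per list with the largest difference, or the 2 largest where none was called; called neighbours; and the 5 genes most like Fcmr. Cd33, Syk, Grb2, Tec, Inpp5d, Ptpn6, Spi1, Fcer1a and Ms4a2 were added as examples. So were Cd79a, Cd79b, Pax5, Dntt, Cr2, Cd37, Ms4a1, Itgam, the myeloid markers with low values and uncalled neighbours. Some list genes were not analysed here. Alternatives were other summaries, filters, normalizations, variance models, the replicate block and leaving out each array.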

Additional observations from a re-analysis of the deposited data

How the results depend on the processing

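All members that differed by 0.07 or more kept their direction under all 15 alternatives, or 13 for the members with low values that the level filters left out; Fcgr1, Fcgr2b and Fcrla, which differed by less, changed sign in some without being called. Fcmr passed under every alternative, with differences from -0.93 to -0.85. No member was higher with the settings used, and 1 (Fcgr3) was under each of 4 alternatives: a second quantile normalization, cyclic loess, robust estimation with a trended variance, and a filter from the median level upward. The count of lower members was 2 and fell to 1 with the replicate block; leaving out 1 array gave 1 to 2. Over all genes, 389 were higher and 201 lower. These counts became 609 and 382 under that filter, 673 and 466 with the robust trended variance, 669 and 542 when arrays were weighted, and 172 and 92 with the replicate block. Centring each array on its median gave 250 higher, the second quantile normalization 360 lower and cyclic loess 345 lower. Leaving out 1 array gave 126 to 497 higher and 70 to 399 lower, the fewest without Dhx9.1241 replicate 1 and replicate 3 and the most without Rluc.713 replicate 1. Deviations of same-numbered arrays from their group means correlated at -0.27, -0.34 and 0.24. Differently numbered arrays were not compared in this way, so these values cannot settle whether the numbers pair the arrays. The values used hold no background or detection measure, so how far Fcgr4, Fcer2a and Fcamr, among the lowest 25% of genes by level, lie above background was not tested.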
